A study of Homo sapiens with 9 samples.

Results

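The 10 genes described here, EGR1, EGR2, EGR3, NR4A1, NR4A2, IER2, IER3, IER5, ZFP36 and SRF, are immediate-early genes and regulators of such genes other than the subunits of AP-1. They were taken by gene symbol from the gene table, which holds 59452 genes, and all 10 symbols were found in it. Of the 15528 genes with enough counts to be tested, 8 were members, and EGR2 and EGR3 were too low to enter the test. The comparisons ask if the immediate-early change between attached and suspended cells reached beyond FOS and JUN.

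MDA-MB-453 is an established human breast cancer line, labelled triple-negative and wild type, and all cells were grown in medium with serum. One group of 3 libraries came from attached cells with vehicle (DMSO), a second from cells kept in forced suspension on poly-HEMA, a coating to which cells cannot adhere, with vehicle, and the last from suspended cells with 10 µM AT0174, a dual inhibitor of TDO2 and IDO1. RNA was taken from every group at 48 hours, and attached cells with AT0174 were not analysed here. The replicates are called biological triplicates of this 1 line, so p-values measure the spread between cultures of it.

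Immediate-early genes are transcribed within minutes of a stimulus, before any new protein is needed, and most of their mRNAs are short-lived. A major route runs from ERK, which phosphorylates ternary complex factors bound with SRF at a DNA element called the CArG box, and another from CREB at the cyclic AMP response element (CRE). EGR1, EGR2 and EGR3 are zinc-finger transcription factors, NR4A1 and NR4A2 are orphan nuclear receptors, and IER2, IER3 and IER5 are small proteins of the immediate-early response. ZFP36 (tristetraprolin) binds AU-rich elements of mRNAs and recruits the CCR4-NOT deadenylase. The cells were sampled at 48 hours only, and whether a level seen then was maintained or arose during collection was not tested.

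RefSeq promoters (GRCh38.p14) were found for 7 of the 10 members, in 11 windows of the 250 bases upstream of a start site, and EGR3, NR4A2 and IER3 were not among them. EGR1 and SRF held the most CArG boxes of these 7 genes, and their windows are shown for that reason. Both windows lie outside annotated exons and end at the base before the start of the single EGR1 and SRF transcript in the data. The EGR1 window is chr5:138465229-138465478 (+) and the SRF window is chr6:43171019-43171268 (+). A 30-base stretch upstream of the inner EGR2 start, chr10:62816413-62816442 (-) and also outside exons, is given beside them because it holds the same 10 bases as the second box of EGR1. Capitals mark CArG boxes and the 5-base core of a CRE (TGACG, or CGTCA when read from the other strand; a full CRE holds both, overlapping).
EGR1: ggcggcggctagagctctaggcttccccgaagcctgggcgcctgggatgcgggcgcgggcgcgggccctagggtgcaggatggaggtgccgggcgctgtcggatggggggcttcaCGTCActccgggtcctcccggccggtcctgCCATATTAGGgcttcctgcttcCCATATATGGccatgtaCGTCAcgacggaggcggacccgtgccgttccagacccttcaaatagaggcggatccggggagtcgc
SRF: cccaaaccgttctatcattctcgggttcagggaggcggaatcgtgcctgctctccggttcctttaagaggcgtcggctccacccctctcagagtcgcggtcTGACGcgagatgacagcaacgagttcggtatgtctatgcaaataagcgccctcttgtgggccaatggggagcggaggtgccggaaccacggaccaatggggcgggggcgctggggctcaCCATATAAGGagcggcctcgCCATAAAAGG
EGR2: tcagtCCATATATGGgcagcgaCGTCAcgg

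The EGR1 window held 2 CArG boxes, CCATATTAGG at positions -105 to -96 from the start site and CCATATATGG at -83 to -74, and CRE cores at -135 to -131 and -66 to -62. The SRF window held CArG boxes at -30 to -21 (CCATATAAGG) and at -10 to -1 (CCATAAAAGG), a CRE core at -149 to -145 and a GC-rich EGR site, GCGGGGGCG, at -49 to -41. The EGR2 stretch, at -76 to -47, held CCATATATGG at -71 to -62 and a CRE core at -54 to -50. Of 35116 promoter windows of the same length, 1.16% held a CArG box on either strand, 0.0313% held at least 2, 21.2% held a CRE core and 5.37% held an EGR site (GCGTGGGCG or GCGGGGGCG). The IER2 window held a CRE core at -140 to -136 and no CArG box by these letters. The windows of NR4A1 in the RefSeq table belong to upstream starts that its main transcripts here do not use, so no element is given for it. These matches describe letters only.

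In total 36649997 to 48019126 estimated counts were assigned per library, with medians of 38658156 in attached cells, 42970982 in suspended cells with vehicle and 44064734 with AT0174. A count of 3, taken as the floor of detection for counting error only, was 0.0625 to 0.0819 CPM, that is counts scaled to library size. The epithelial and apocrine markers fixed for this line were all present, among them KRT8 at 875 to 955 CPM and ERBB2 at 1029 to 1082 CPM. Of 10 markers of other cell types, CD3E was at 0 in every library and PTPRC, COL3A1 and COL1A2 had at most 2, 1 and 4 counts. CD68 was at 1.201 to 2.31 CPM and COL1A1, the one abundant gene of that list, at 107 to 149 CPM. The summed level of the list was 133 to 151 CPM in attached cells, 114 to 116 CPM in suspended cells with vehicle and 109.6 to 116 CPM with AT0174. Of the 11 epithelial markers 5 rose in suspended cells with vehicle and none fell, where 10.4% of all tested genes were higher and 10.8% lower. Their sum was 6830 to 7014 CPM attached and 7636 to 7742 CPM suspended with vehicle. The part of either list in the results was not tested. In bulk RNA, more cells that express a gene and more RNA per cell cannot be told apart.

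Compared per length, in TPM, attached cells expressed IER3 most, at 133 ± 2.87 TPM (SD, n = 3 here and below), followed by IER2 at 68.8 ± 3.39 TPM and ZFP36 at 54.1 ± 2.79 TPM. SRF was at 26.1 ± 0.50 TPM, EGR1 at 18.2 ± 1.84 TPM, IER5 at 10.9 ± 0.87 TPM, NR4A1 at 9.21 ± 0.22 TPM and NR4A2 at 2.68 ± 0.46 TPM. The libraries of neighbours in this order did not overlap, apart from EGR3 (0.0351 to 0.162 TPM) and EGR2 (0.0399 to 0.115 TPM) at the bottom. The level of EGR1, at 38.3 ± 7.48 TPM, exceeded that of SRF, at 28.98 ± 1.91 TPM, in the means of suspended cells with vehicle, but the ranges of their libraries overlapped there. With AT0174 the 2 genes no longer overlapped, EGR1 being at 32.95 to 43.7 TPM and SRF at 26.3 to 27.3 TPM. NR4A1 (10.5 to 14.4 TPM) and IER5 (11.3 to 12.6 TPM) overlapped in suspended cells with vehicle.

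In suspended cells EGR1, NR4A1 and IER2 were higher than in attached cells, by 1.94-fold, 1.43-fold and 1.30-fold, and no member was lower. The other 5 tested members, NR4A2, IER3, IER5, ZFP36 and SRF, did not pass the test. Thus 3 of 8 tested members were called at an adjusted p under 0.05 (edgeR quasi-likelihood test, Benjamini-Hochberg over all 15528 genes), where 21.2% of all tested genes were called, 10.4% higher and 10.8% lower. The median log2 fold change of the 8 members was 0.08, against -0.0003 over all tested genes. An unadjusted p under 0.05 was reached by 4 of the 8, the 3 above and IER3, and by 34.1% of all genes.

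EGR1 (ENSG00000120738, chr5:138465479-138469303, GRCh38, + strand), which drives genes of growth and differentiation after serum or stress, had 34.6, 42.3 and 41.8 CPM in the 3 attached libraries. In suspended cells with vehicle it had 89.6, 82.2 and 59.1 CPM. Every suspended library lay above every attached one, although suspended library 3 was well below its companions. All 3 libraries were above all 3 of the other group for 19.4% of tested genes. The means were 39.6 ± 4.33 and 77.0 ± 15.9 CPM, and the fold of 1.94 had a 95% interval of 1.55 to 2.43 (log2 fold change 0.96, SE 0.15, adjusted p = 0.00132).

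EGR2 (ENSG00000122877, chr10:62811996-62819167, - strand), known for its part in myelination and lymphocyte anergy, was close to absent. Attached cells had 1, 8 and 5 counts, suspended cells with vehicle had 3, 2 and 7 and those with AT0174 had 8, 5 and 1, where 3 counts is the floor. EGR3 (ENSG00000179388, chr8:22687659-22693480, - strand), a target and partner of the other EGR factors, had 3, 4 and 8 counts, then 8, 0 and 8, then 1, 1 and 5. A non-coding gene on the opposite strand, ENSG00000253125, overlaps EGR3 and had 46 to 84 counts, and the strand setting of the counting is not given in the sources used here. The groups overlapped for both genes, so that no difference was detectable at this depth. EGR4, the remaining gene of the family, had 0 to 2 counts.

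NR4A1 (ENSG00000123358, chr12:52022832-52059507, + strand), also called Nur77, had 10.7, 10.0 and 11.3 CPM in attached cells and 14.5, 18.7 and 12.7 CPM in suspended cells with vehicle. The groups did not overlap, and the second suspended library was the highest. The 1.43-fold difference had a 95% interval of 1.195 to 1.72 (log2 fold change 0.52, SE 0.12, adjusted p = 0.0103). The call was lost when counts were rebuilt from TPM, which removes transcript length (log2 fold change 0.29, adjusted p = 0.224). The coding NR4A1 transcripts ENST00000548232 and ENST00000394825 overlapped between these groups, and a retained-intron form, ENST00000550557, did not. These transcript values, given below, are estimates that were not tested. NR4A2 (Nurr1, ENSG00000153234, chr2:156324437-156342348, - strand), best known from dopamine neurons, had 4.13, 4.62 and 4.58 CPM in attached and 4.73, 4.33 and 3.64 CPM in suspended cells. Its groups overlapped (log2 fold change -0.07, 95% interval -0.33 to 0.19, adjusted p = 0.715), and the sign turned when counts were rebuilt from TPM (0.20). NR4A3, the remaining receptor of the family, was at 0.863 to 1.52 CPM attached and 0.723 to 0.933 CPM suspended (log2 fold change -0.55, SE 0.29, adjusted p = 0.212).

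IER2 (ENSG00000160888, chr19:13150411-13154911, + strand), a nuclear protein of the family, had 90.6, 93.9 and 92.3 CPM in attached cells. Suspended cells with vehicle had 116, 131 and 111 CPM, all above the attached libraries. The fold was 1.30, with a 95% interval of 1.18 to 1.42 (log2 fold change 0.37, SE 0.06, adjusted p = 0.00198). IER3 (IEX-1, ENSG00000137331, chr6:30743199-30744548, - strand), which acts in cell survival, had 102, 107 and 106 CPM attached and 118, 108 and 109.5 CPM suspended. All 3 suspended libraries lay above the attached ones, but by little, and the test was not passed (log2 fold change 0.09, SE 0.04, adjusted p = 0.110). IER5 (ENSG00000162783, chr1:181088700-181092900, + strand), a cofactor of heat shock factor HSF1, had 30.4, 34.9 and 31.2 CPM attached and 31.4, 33.3 and 33.9 CPM suspended, and its groups overlapped (log2 fold change 0.03, SE 0.06, adjusted p = 0.735). IER5L, its close relative, was at 29.97 ± 1.38 and 31.5 ± 1.49 CPM (adjusted p = 0.330). The non-coding genes opposite IER2 and IER3 had at most 29 and 33 counts, against 3393 or more for IER2 and 3864 or more for IER3.

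ZFP36 (ENSG00000128016, chr19:39406847-39409412, + strand) had 56.0, 58.1 and 61.9 CPM in attached and 65.7, 60.8 and 57.6 CPM in suspended cells, and the groups overlapped (log2 fold change 0.06, SE 0.05, adjusted p = 0.432). Its relative ZFP36L1, which binds the same kind of AU-rich element, fell from 553 ± 35.0 to 384 ± 13.6 CPM, with every suspended library below every attached one (log2 fold change -0.53, SE 0.06, adjusted p = 0.000147). ZFP36L2 was at 304 ± 17.8 and 276 ± 13.7 CPM (log2 fold change -0.14, SE 0.05, adjusted p = 0.0568), and ZFP36L2 was called lower under 6 of the alternatives, DESeq2 among them (adjusted p = 0.0181). SRF (ENSG00000112658, chr6:43171269-43181506, + strand), the factor that binds the CArG box, had 76.9, 78.1 and 77.3 CPM in attached and 76.3, 78.0 and 84.2 CPM in suspended cells. The groups overlapped and the 95% interval of the fold was 0.969 to 1.09 (log2 fold change 0.04, adjusted p = 0.536).

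**Figure D1:**
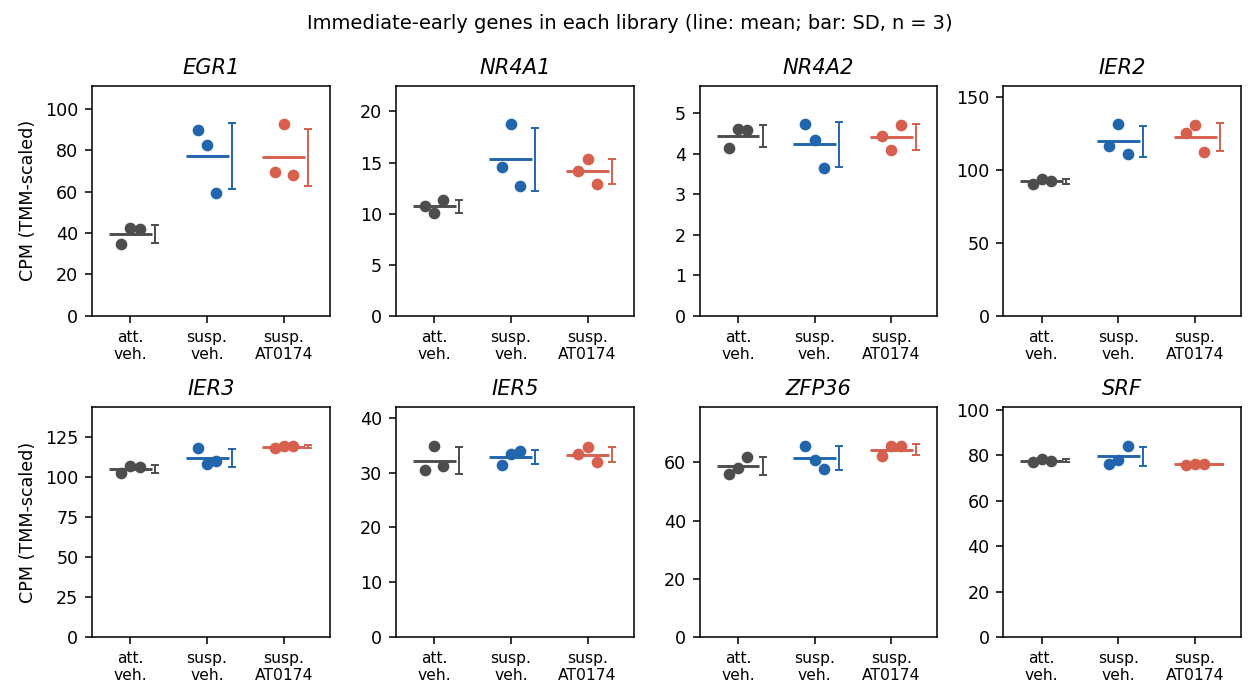
Level of the 8 tested genes in each library, in CPM on linear axes that start at 0, for attached cells with vehicle (grey), suspended cells with vehicle (blue) and suspended cells with AT0174 (red). Points are libraries, lines are means and the bars beside them are SD (n = 3); for EGR1 all 6 suspended libraries, at 59.1 to 92.5 CPM, lie above the attached ones, at 34.6 to 42.3 CPM, whereas those of SRF lie at 75.7 to 84.2 CPM beside 76.9 to 78.1 CPM.

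FOS, which pairs with JUN proteins in AP-1, is the gene beside which these members are read. It had 0.706, 0.941 and 0.592 CPM in attached cells and 37.5, 45.4 and 20.9 CPM in suspended cells with vehicle (log2 fold change 5.54, SE 0.39, adjusted p = 2.89e-06). FOSB rose by a log2 fold change of 1.47 (SE 0.25, adjusted p = 0.00197), JUNB by 0.57 (SE 0.06, adjusted p = 4.2e-05) and JUN by 0.43 (SE 0.07, adjusted p = 0.00243). By point estimate EGR1 lay between FOSB and JUNB in size of change, and NR4A1 and IER2 beside JUNB and JUN. The 95% intervals of log2 fold change were 0.63 to 1.28 for EGR1, 0.93 to 2.00 for FOSB, 0.26 to 0.78 for NR4A1 and 0.45 to 0.69 for JUNB. That of EGR1 overlapped those of FOSB and JUNB. The difference in change between FOS, FOSB, JUN or JUNB and any member was not tested.

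The members that rose did so unevenly over the suspended libraries. Suspended vehicle library 3 had the lowest level of its group for EGR1, NR4A1 and IER2, and also for FOS, FOSB and JUNB. With AT0174, library 3 was again the lowest for each of these 6 genes. Among the attached libraries, library 3 was the lowest for FOS, FOSB and JUNB. There the lowest was library 1 for EGR1 and IER2 and library 2 for NR4A1. JUN was lowest in library 3 of every group. The numbers were not taken to pair the cultures, and a cause was not tested. Without suspended vehicle library 3 the log2 fold change of EGR1 was 1.12, and over all alternatives it was 0.84 to 1.12 with EGR1 called in 17 of 17.

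**Figure D2:**
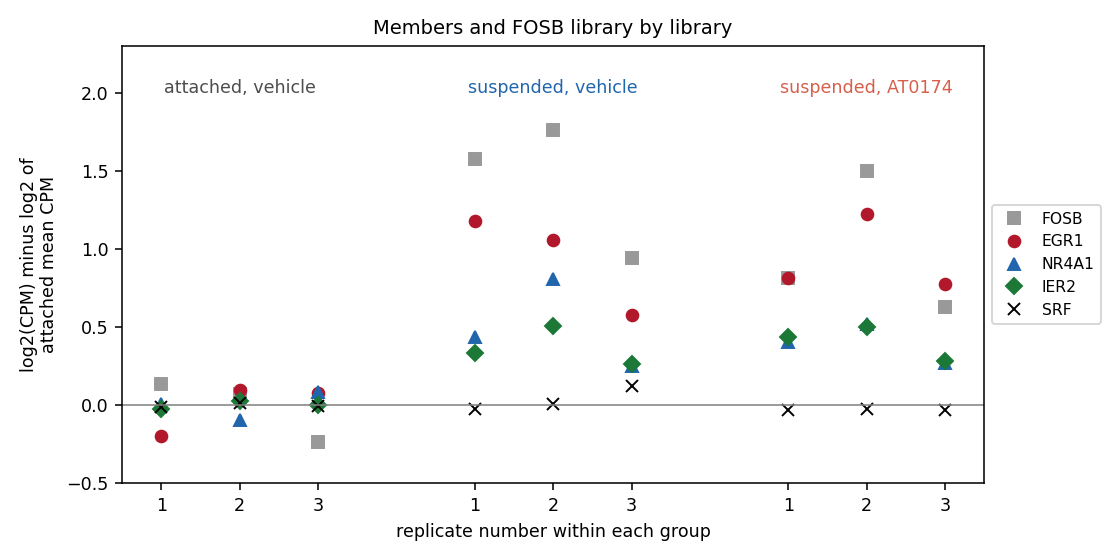
EGR1, NR4A1, IER2 and SRF with FOSB in each of the 9 libraries, as log2 CPM minus the log2 of the gene's mean CPM in attached cells (vertical axis) by replicate number within each group (horizontal axis). EGR1 in suspended vehicle libraries 1, 2 and 3 was at 1.18, 1.06 and 0.58, and FOSB at 1.58, 1.76 and 0.94, while SRF stayed between -0.03 and 0.12 in all suspended libraries.

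With AT0174 none of the 8 tested members differed from suspended cells with vehicle, and the levels of EGR1, NR4A1 and IER2 stayed above those of attached cells. Of all tested genes 0.779% were called in this comparison, 0.522% higher and 0.258% lower. The count of 0 members was obtained with edgeR, DESeq2 and limma-voom, and 1 member, IER3, had an unadjusted p under 0.05, where 9.02% of all genes did. The median log2 fold change of the members was 0.03, against 0.001 over all genes.

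EGR1 had 69.5, 92.5 and 67.8 CPM with AT0174, inside the range of the vehicle libraries except for the highest. The log2 fold change was -0.01 with a 95% interval of -0.32 to 0.30 (adjusted p = 0.996), which is 0.803 to 1.23 as a fold, and the sign turned under 5 of 17 alternatives. NR4A1 had 14.2, 15.3 and 12.9 CPM, all within the vehicle range (log2 fold change -0.12, 95% interval -0.37 to 0.13, adjusted p = 0.843). IER2 had 125, 130.4 and 112 CPM (log2 fold change 0.04, 95% interval -0.10 to 0.17, adjusted p = 0.928). For each of these 3 genes the libraries with AT0174 and those with vehicle overlapped.

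IER3 had 118, 119 and 119 CPM with AT0174, 2 of its 3 libraries above the highest vehicle library (log2 fold change 0.09, SE 0.04, unadjusted p = 0.0338, adjusted p = 0.485). SRF had 75.7, 76.2 and 75.98 CPM and was the one member with all 3 AT0174 libraries below all 3 vehicle libraries, a position that 7.66% of tested genes held (log2 fold change -0.07, SE 0.04, adjusted p = 0.665). NR4A2 had 4.43, 4.08 and 4.71 CPM, IER5 33.3, 34.6 and 31.9 CPM and ZFP36 62.0, 65.5 and 65.4 CPM, and each overlapped with its vehicle group. The adjusted p of these 3 genes was 0.776 to 0.971.

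Of the 4 tested relatives of the members, IER5L passed the test with AT0174. It rose from 31.5 ± 1.49 to 38.2 ± 0.80 CPM, with no overlap (log2 fold change 0.28, SE 0.05, adjusted p = 0.0165). The IER5L call was lost with counts rebuilt from TPM (adjusted p = 0.192) and without suspended vehicle library 1 or 2 or any 1 of the AT0174 libraries (adjusted p = 0.0554 to 0.0887). ZFP36L1 and ZFP36L2 were at 441 ± 38.8 and 311 ± 14.5 CPM with AT0174, and all 3 libraries of each lay above the vehicle ones, a position of 7.75% of genes. Neither passed the edgeR test (log2 fold changes 0.20 and 0.18, adjusted p = 0.219 and 0.182), but ZFP36L1 and ZFP36L2 were both called higher by DESeq2 (adjusted p = 0.0285 and 0.0275) and by edgeR without a filter on low counts. FOS, FOSB, JUN and JUNB did not pass the edgeR test, with log2 fold changes of -0.02, -0.44, 0.20 and 0.08. Without that filter FOSB was called lower (adjusted p = 0.0367) and JUN higher (adjusted p = 0.00255). The fit without a filter called more genes altogether in this comparison, as given at the end. FOSB had 3.79 to 6.93 CPM with AT0174 and 4.71 to 8.30 CPM with vehicle, which overlap, whereas the JUN libraries did not overlap.

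**Figure D3:**
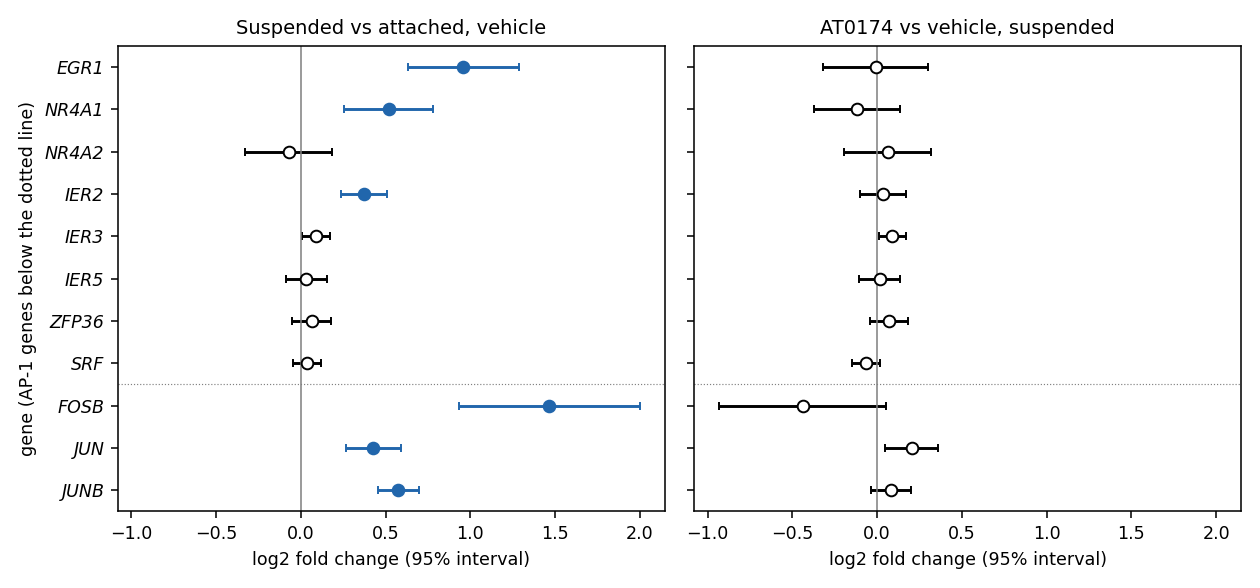
Log2 fold change (horizontal axis) with its 95% interval for the 8 tested members and, below the dotted line, FOSB, JUN and JUNB, for suspended against attached cells with vehicle (left) and AT0174 against vehicle in suspended cells (right). Filled points passed an adjusted p under 0.05: EGR1, NR4A1 and IER2 with FOSB, JUN and JUNB on the left and none on the right, where EGR1 is at -0.01 (interval -0.32 to 0.30).

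Suspended cells with AT0174 against attached cells, a comparison that shares its samples with both others, had 4 of 8 members higher and none lower, where 24% of all genes were called (12.2% higher and 11.8% lower). An unadjusted p under 0.05 was reached by 5 of the 8, and by 36.6% of all genes. EGR1 was higher by a log2 fold change of 0.95 (SE 0.15, adjusted p = 0.000969), IER2 by 0.41 (SE 0.06, adjusted p = 0.000842) and NR4A1 by 0.40 (SE 0.12, adjusted p = 0.0300). IER3 was the fourth, at 0.18 (SE 0.04, adjusted p = 0.00488), with 119 ± 0.776 against 105 ± 2.44 CPM. The NR4A1 call was lost when attached library 1, 2 or 3 or AT0174 library 1 or 2 was left out (adjusted p = 0.0538 to 0.0928) and when counts were rebuilt from TPM (0.0913). ZFP36 had all 3 AT0174 libraries above the attached ones, as 20.4% of genes did, but did not pass (log2 fold change 0.13, adjusted p = 0.0875), and passed only when no filter on low counts was used (adjusted p = 0.0171). IER5, NR4A2 and SRF were at 0.05, -0.01 and -0.03, and SRF had all 3 AT0174 libraries below the attached ones, as did 19.1% of genes.

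The transcript values add detail that gene totals do not show and are given as a description. EGR1, IER5 and SRF have 1 transcript each in the data, NR4A1 has 22, of which 9 reached 0.5 TPM in a library, and IER2 has 3. The reads of NR4A1 were not spread alike over its transcripts. The most abundant per length was ENST00000548232, a coding form of 2 exons and 1101 bases, at 3.78, 5.50 and 5.23 TPM in attached, 5.46, 6.73 and 4.54 TPM in suspended and 5.85, 4.31 and 4.98 TPM in AT0174-treated cells, and its groups overlapped. ENST00000394825, a coding transcript of 7 exons and 2485 bases, was at 3.75, 2.79 and 3.14 TPM in attached and at 3.36, 3.01 and 4.15 TPM in suspended cells with vehicle. Its attached and suspended vehicle libraries overlapped as well. ENST00000550557, an annotated retained-intron form of 4837 bases, was at 0.144, 0.198 and 0.287 TPM in attached and at 1.57, 2.33 and 0.835 TPM in suspended cells. With AT0174 it was at 1.07, 1.30 and 0.470 TPM, again above each attached library. It took 18.6 to 38.8 estimated reads per attached library and 114 to 321 per suspended vehicle library, out of 363 to 440 and 560 to 827 for the gene.

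For IER2, the 2-exon transcript ENST00000292433 was at 35.4 ± 2.08 TPM in attached, 56.6 ± 7.45 TPM in suspended and 55.6 ± 5.78 TPM in AT0174-treated cells. The other 2-exon form, ENST00000587885, was at 21.2 ± 5.40, 30.9 ± 1.15 and 28.2 ± 0.434 TPM. The single-exon form ENST00000588173 was at 12.1 ± 0.423, 11.6 ± 1.30 and 13.02 ± 0.484 TPM, and the attached and suspended vehicle groups overlapped. IER3 was mostly ENST00000259874, with 91.1% to 96.0% of the gene's TPM in every library. For ZFP36 a short form of 690 bases, ENST00000594045, was at 4.82 ± 1.48 TPM in attached, 9.68 ± 2.21 TPM in suspended and 9.85 ± 2.43 TPM in AT0174-treated cells, beside 49.2 ± 1.26, 54.2 ± 3.22 and 54.0 ± 2.58 TPM for its main form. Splitting reads among overlapping transcripts is an estimate, and no test was made on it.

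**Figure D4:**
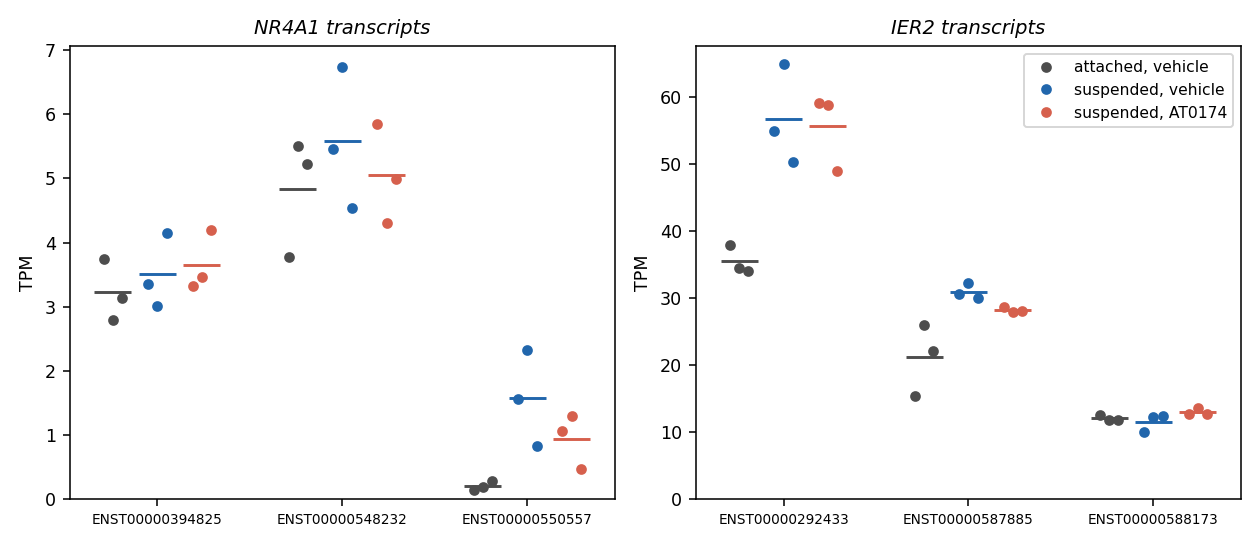
TPM (vertical axis, from 0) of 3 transcripts of NR4A1 (left) and of IER2 (right) in each library, with lines at the group means. The retained-intron form of NR4A1, ENST00000550557, rises from means of 0.210 TPM in attached to 1.58 TPM in suspended and 0.944 TPM in AT0174-treated cells, and the single-exon IER2 form ENST00000588173 stays at 11.6 to 13.02 TPM.

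The genes with the most similar pattern over the 9 libraries were sought among 12769 tested genes with a mean of at least 1 CPM, by the root mean square difference of centred log2 CPM. For EGR1 they were LINC01814 (0.209), GCNT1 (0.224), the phosphatase gene DUSP1 (0.235), JUNB (0.238) and GPCPD1 (0.242), beside an SD of 0.52 for EGR1 itself. For NR4A1 they were DNAH5 (0.109), IER2 (0.110), KMO (0.111), PRKDC (0.113) and EDN2 (0.116), beside an SD of 0.28 for NR4A1. KMO codes for an enzyme of the kynurenine pathway, kynurenine 3-monooxygenase, and was at 8.87, 11.6 and 12.5 CPM in the means of the 3 groups. All points share their libraries, and the values only rank likeness.

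Among other immediate-early genes, 14 of 39 tested were higher in suspended than in attached cells, 2 were lower and the median log2 fold change was 0.13, where 10.4% of all tested genes were higher and 10.8% lower. Rebuilding the counts from TPM left 9 higher and 1 lower. The 4 with the smallest p were DUSP6, a phosphatase of ERK (log2 fold change 0.42, SE 0.04), the transcription factor KLF2 (0.63, SE 0.06), MYC (0.48, SE 0.05) and the clock-linked repressor BHLHE40 (0.32, SE 0.03), with adjusted p of 1.54e-05 to 6.46e-05. With AT0174 2 of the 39 rose and none fell, where 0.779% of all genes were called: KLF2 went from 72.5 ± 3.00 to 92.3 ± 0.914 CPM (log2 fold change 0.35, adjusted p = 0.0119) and DUSP6 from 178 ± 5.41 to 205 ± 7.48 CPM (0.21, adjusted p = 0.0134). Both calls were lost with counts rebuilt from TPM (adjusted p = 0.273 for KLF2 and 0.192 for DUSP6) and without suspended vehicle library 1 or 3 or AT0174 library 2 (0.0516 to 0.0855), and that of KLF2 also without AT0174 library 1 or 3 (0.0573 and 0.0610). DUSP5, named after its values were seen, was called lower by DESeq2 (adjusted p = 0.00597) and with the replicate block (0.0264), against 0.0601 here. Of the AP-1 subunits 4 of 7 tested rose in suspended cells, with a median of 0.43, and 0 of 7 were called with AT0174.

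Of 17 tested ERK pathway kinases and SRF cofactors, 2 rose in suspended cells and none fell, with a median log2 fold change of 0.02, where 10.4% of all genes were higher and 10.8% lower. They were RPS6KA5 (MSK1), a kinase of CREB and histone H3 (log2 fold change 0.37, SE 0.05, adjusted p = 0.000734), and FHL2, a LIM-domain protein that binds SRF (1.22, SE 0.25, adjusted p = 0.00524). FHL2 was scarce, with 16 to 24 counts in attached and 48 to 56 in suspended libraries, and fell with AT0174 to 17 to 20 counts (log2 fold change -1.56, SE 0.25, adjusted p = 0.0101). The fall of FHL2 was not called with counts rebuilt from TPM (adjusted p = 0.0859) or without suspended vehicle library 1 or AT0174 library 1 or 3 (0.0589 to 0.0618).

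The genes of actin and adhesion that SRF serves with its cofactor MRTF gave 5 higher and 1 lower of 17 tested in suspended cells, with a median of 0.04. Of all tested genes 10.4% were higher and 10.8% lower in that comparison. CCN1 and CCN2, of this list, are also among the other immediate-early genes above, and neither was called there. When counts were rebuilt from TPM, 3 of the list rose and 1 fell, and VCL was not called (adjusted p = 0.147). ACTG1 (log2 fold change 0.31, SE 0.04) and VCL (0.16, SE 0.03) rose beside FHL2, which is on both lists, and TPM2 fell (-1.23, SE 0.22, adjusted p = 0.00283). With AT0174 no gene of this list rose and 5 of 17 fell, where 0.258% of all genes fell, and the median was -0.06. VCL, for vinculin, fell by 0.34 (SE 0.03, adjusted p = 3.74e-05) and ACTG1, for gamma-actin, by 0.20 (SE 0.04, adjusted p = 0.0465) on the log2 scale, together with FHL2, ZYX and CNN2. ZYX (-0.28, adjusted p = 0.00159) and CNN2 (-0.27, adjusted p = 0.000727) are named to complete the count, after their values were seen. With counts rebuilt from TPM 2 of the 17 fell, VCL and CNN2, and 6 of 17 fell with DESeq2. The call of ACTG1 was also lost without attached library 1 or any 1 of the 6 suspended libraries (adjusted p = 0.0663 to 0.183). In the same comparison SRF itself had a log2 fold change of -0.07 and did not pass.

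Of 30 tested genes on the lists of genes that work with or after the members, 6 were called in suspended cells. This is near the 21.2% of all tested genes, so the count is no result about them. The 30 include the members IER3 and ZFP36, which are on the list of AU-rich mRNAs. MYC and PIM1, of the same list, are also among the other immediate-early genes above. Of 7 tested partners and corepressors of EGR and NR4A proteins, RXRA rose (log2 fold change 0.10, adjusted p = 0.0266) and RXRB fell (-0.20, adjusted p = 0.00974) in suspended cells, both being retinoid X receptors that pair with NR4A proteins. Neither was called with counts rebuilt from TPM (adjusted p = 0.0900 for RXRA and 0.0983 for RXRB), and RXRA was not called without a filter, with only the libraries compared, or without any 1 of the attached libraries or suspended vehicle library 2 (0.0541 to 0.0966). Of 15 CCR4-NOT and decapping factors, CNOT1, the scaffold of the complex, rose (0.13, adjusted p = 0.0160) and CNOT3 fell (-0.20, adjusted p = 0.0108), but neither passed without suspended vehicle library 2 (adjusted p = 0.0599 and 0.0539) and CNOT3 did not with counts rebuilt from TPM (0.233). Of 8 tested AU-rich mRNAs bound by ZFP36, MYC and CCND1 rose (CCND1 by 0.17, adjusted p = 0.00300) and none fell, with a median of 0.01, and 11 more of the list were too low to test. With AT0174 edgeR, after the filter on low counts, called none of these 30 genes, where 0.779% of all genes were called, but NFKBIA, an AU-rich mRNA named after its values were seen, was called lower by DESeq2 (adjusted p = 0.0394) and with the replicate block (0.00482), against 0.221.

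**Figure D5:**
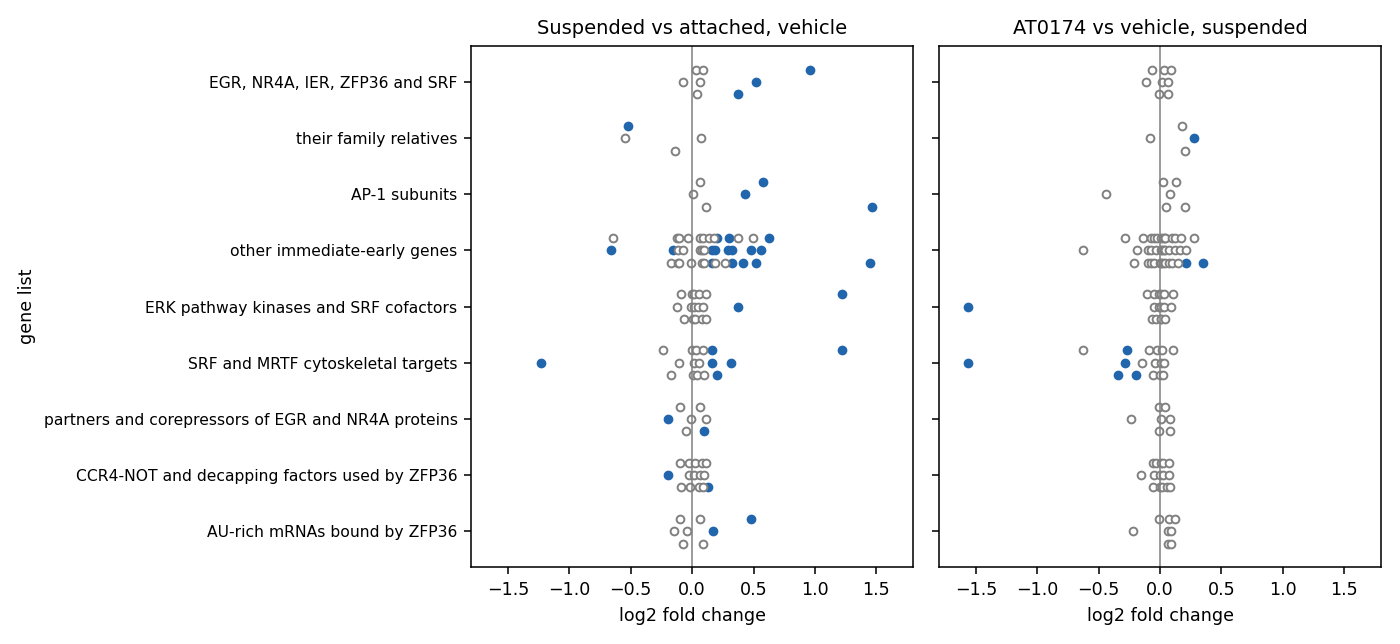
Log2 fold change (horizontal axis) of each tested gene of 9 lists (vertical axis), for suspended against attached cells with vehicle (left) and AT0174 against vehicle (right); filled points passed an adjusted p under 0.05, points are spread vertically for legibility, and FOS, at 5.54 on the left, is left out of both panels. On the left 3 of the 8 members and 14 of 39 other immediate-early genes are filled to the right of 0, and on the right 5 of 17 cytoskeletal targets are filled to the left of it.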

How the data were processed

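RNA-seq was made from 9 cultures of MDA-MB-453 cells. The authors removed adapters with Trim Galore 0.6.7, aligned reads with STAR 2.7.9a to GRCh38 and quantified them with Salmon 1.10.1. The deposited gene values are estimated counts that the authors summed by gene, without normalization. The deposited transcript TPM values, also from the authors' Salmon output, are scaled per effective length and served for levels between genes and for 1 alternative. The paper and the labels name different library kits, and whether reads were counted by strand is not given in the sources used here.

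Estimated counts were rounded to whole numbers, low genes were removed by group with filterByExpr, and libraries were scaled by TMM in edgeR 4.0.16 under R 4.3.3. All 9 libraries entered 1 quasi-likelihood fit with group as the only term, and a gene was called when its p, adjusted by Benjamini-Hochberg, was below 0.05. SE and 95% intervals come from that fit, and CPM use TMM-scaled library sizes. The procedure was also run on counts simulated from the spread fitted to these data. That run cannot show whether the fitted spread holds for the real cultures. Groups and replicate numbers came from the labels. Alternatives were DESeq2 1.42.0, DESeq2 size factors, limma-voom (limma 3.58.1), other filters, only the libraries compared, a replicate block, counts rebuilt from TPM, a stricter threshold and each library left out. No libraries agreed within sampling noise, and none was left out of the main fit.

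The named genes were the members, their family relatives, FOS, FOSB, JUN and JUNB, up to 4 called genes with the smallest p of each other list in suspended against attached cells, and the 5 genes most like EGR1 and like NR4A1. The members and lists were chosen with earlier results of these data known. Positions are from GENCODE on GRCh38, and promoters from RefSeq on GRCh38.p14.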

Additional observations from a re-analysis of the deposited data

How the results depend on the processing

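EGR1 and IER2 were called higher in both suspended groups than in attached cells under 17 of 17 alternatives, IER3 under 17 of 17 with AT0174, and 0 members were called for AT0174 against vehicle under any. NR4A1 lost its call with counts rebuilt from TPM against attached cells (0.29 with vehicle and 0.41 with AT0174) and, with AT0174, without attached library 1, 2 or 3 or AT0174 library 1 or 2. ZFP36 gained one with AT0174 against attached cells without a filter (0.14). The stricter threshold is not among these 17 alternatives. At an adjusted p under 0.01 in the edgeR test, NR4A1 was not called against attached cells in either suspended group. The same-numbered libraries correlated at -0.19 to 0.34, over 0.1 in 3 of 9 pairs, so the numbers were not taken to pair the samples; with the replicate block 3250, 146 and 3677 genes and 3, 0 and 4 members were called for suspended against attached, AT0174 against vehicle and AT0174 against attached cells, in that order below. Leaving out 1 library gave 1935 to 3260, 63 to 128 and 2239 to 3680 genes called and 3 to 3, 0 to 0 and 3 to 4 members; the fewest came without attached library 3 for the first, and without AT0174 library 1 for the other two. Without attached library 3, suspended vehicle library 2 or AT0174 library 1, counts with attached cells fell by over 1.5 times (1935 and 1951; 2381 and 2239), as did those for AT0174 against vehicle without either suspended vehicle library 1 or 3 or any AT0174 library (63 to 70). Counts rebuilt from TPM gave 1396, 31 and 1802 genes, and an adjusted p under 0.01 gave 1405, 52 and 1839. DESeq2 gave 214 and no filter 499 for AT0174 against vehicle. The causes were not tested.

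Signs turned only where no call was made. Over the fits that left out 1 library, the log2 fold change for suspended against attached cells ran from -0.15 to 0.028 for NR4A2, -0.0059 to 0.095 for IER5 and -0.0040 to 0.069 for SRF. For AT0174 against vehicle it ran from -0.17 to 0.11 for EGR1, -0.24 to 0.051 for NR4A1, -0.040 to 0.14 for NR4A2, -0.020 to 0.10 for IER2 and -0.021 to 0.039 for IER5, and for AT0174 against attached cells from -0.063 to 0.042 for NR4A2. Counts rebuilt from TPM turned NR4A2 (0.20 and, with AT0174, 0.29 against attached cells) and NR4A1 (0.12 for AT0174 against vehicle), limma-voom turned EGR1 (0.0011 for AT0174 against vehicle), and no filter turned NR4A2 (7.3e-05 for AT0174 against attached cells). Depth limits EGR2 and EGR3, at 8 counts or fewer in every library.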
